A study of Mus musculus with 4 samples.

Results

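The costimulatory and inhibitory receptor genes of T cells were examined in RNA sequencing libraries of mouse T-helper 2 (Th2) cells. The members were 8 receptor genes, Tnfrsf18, Tnfrsf4, Tnfrsf9, Icos, Ctla4, Cd28, Btla and Pdcd1, and Gm16008, a noncoding gene annotated on the strand opposite Tnfrsf18. They were taken by symbol, with no value in the rule, and all 9 were found among the 50600 genes of the files. The labels describe 4 biological replicates of primary Th2 cells of the mouse strain C57BL/6NJ, with 1 donor entry for all of them, no stated treatment and an unknown age. They call the assay total RNA-seq, whereas the protocol they link is named for poly(A) RNA, and a further document covers CD4 T cell differentiation. A time of 72 h stands in the file headers, and the labels do not explain it. All libraries form a single group, so genes were compared within libraries and libraries with each other. The biosample records differ, but nothing shows that the replicates came from separate animals, so p-values reflect the scatter of these libraries, which may be technical.

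T cells need a signal through the antigen receptor and a further signal through costimulatory receptors to divide and make cytokines. Cd28 is the receptor that gives this signal to resting cells, Icos is its inducible relative, and Ctla4 is the inhibitory relative that competes with Cd28 for the same ligands, CD80 and CD86. Tnfrsf4 (OX40), Tnfrsf9 (CD137) and Tnfrsf18 (GITR) belong to the tumour necrosis factor receptor family, are induced or raised on activated T cells, and signal through TRAF adaptors to NF-kB. Pdcd1 (PD1) and Btla carry inhibitory motifs in their cytoplasmic tails that recruit phosphatases. Ctla4, Tnfrsf18, Icos and Tnfrsf4 are also well known from regulatory T cells. In bulk RNA, fewer cells of a type and less RNA per cell cannot be told apart.

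Replicates 1, 3 and 4 held 2388255, 1929880 and 1713199 gene counts, and replicate 2 held 5016. The members together had 16668, 16116 and 11965 counts in replicates 1, 3 and 4, of which the 8 receptors had 571, 300 and 496. In replicate 2 the receptors had 4 counts in all, so values below rest on the other 3 libraries. A T cell and Th2 list held Cd3d, Cd3e, Cd3g, Cd4, Trac, Gata3, Il4, Il5 and Il13. All 9 lay above 1 TPM, against 43.1% of the 14282 genes tested (TPM is the count per kb, scaled to the same sum in each library). Of these, Gata3, Cd3e and Il5 have exons opposite Gm13256, Gm48719 and Gm12214. Markers of natural killer cells had no count in 3 of 4 cases, of myeloid and dendritic cells in 7 of 8 and of B cells in 4 of 5. The summed B cell marker level of 2.05, 5.51 and 9.84 TPM in replicates 1, 3 and 4 came from Cd79a alone. CD8 T cell markers summed to 0 to 1.14 TPM. Of the regulatory T cell markers, Foxp3 stood at 90.8, 90.8 and 92.0 TPM with exons opposite Ccdc22 and Gm36995, while Ikzf2 and Ikzf4 had 1 to 3 and 0 to 1 counts per library. Whether Foxp3 counts reflect regulatory T cells was not tested.

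Fragments were counted with strand setting 1, which assigns a fragment to a gene by the strand of its first mate. The sources used here do not give the strand that the library kit reads. If the kit reads the opposite strand, the fragments counted for Gm16008 come from RNA of the Tnfrsf18 strand, those counted for Tnfrsf18 from the other strand, and the levels of all receptors are not those of their own RNA. Genes with exons overlapping an opposite-strand exon, 8189 of the 50600, held 90.7% to 94.2% of the counts in replicates 1, 3 and 4. Whether the setting matches the kit was not tested. Each value below, and each level or absence of a marker gene above, is therefore one of counts assigned to a gene. None is of RNA shown to come from that gene's strand. Among the 8 receptors, Tnfrsf18 alone has exons that overlap exons annotated on the other strand. Tnfrsf18 lies on chromosome 4 at 156026164 to 156028895 (mm10, plus strand, 1524 exonic bases), and Gm16008 at 156022008 to 156031643 (minus strand, 1324 exonic bases). They share 414 bases in 2 blocks, 334 bases at 156026297 to 156026630 in the first exon of Tnfrsf18 and 80 bases at 156028475 to 156028554 in its last. The shared bases are 27.2% of the exonic bases of Tnfrsf18 and 31.3% of those of Gm16008. The first block holds the whole coding part of that exon in a GENCODE transcript of Tnfrsf18, which is printed here 5′ to 3′ (chr4:156026387-156026537, mm10, from GENCODE) to show the bases that both genes claim. The capitals mark the start codon and its complement.
Tnfrsf18, plus strand: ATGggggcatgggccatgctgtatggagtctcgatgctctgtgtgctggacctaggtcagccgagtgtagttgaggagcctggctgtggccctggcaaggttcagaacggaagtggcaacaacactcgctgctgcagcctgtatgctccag
Gm16008, minus strand: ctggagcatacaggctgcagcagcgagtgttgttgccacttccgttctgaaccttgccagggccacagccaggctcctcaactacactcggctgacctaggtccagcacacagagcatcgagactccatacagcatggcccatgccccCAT

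The exon of Gm16008 over the first block, read on the minus strand, ends inside the first exon of Tnfrsf18 as the files give it. RefSeq places the start of Tnfrsf18 further downstream, within the exon of Gm16008. In the RefSeq promoter table (GRCm38.p6), which held 7 of the 9 members, the window of 250 bases before to 50 after the start of Tnfrsf18 is chr4:156026072-156026371 on the plus strand. Its last 75 bases, in capitals, lie in the same exon of Gm16008, so fragments there can be assigned to either gene by strand alone.
Tnfrsf18 promoter window: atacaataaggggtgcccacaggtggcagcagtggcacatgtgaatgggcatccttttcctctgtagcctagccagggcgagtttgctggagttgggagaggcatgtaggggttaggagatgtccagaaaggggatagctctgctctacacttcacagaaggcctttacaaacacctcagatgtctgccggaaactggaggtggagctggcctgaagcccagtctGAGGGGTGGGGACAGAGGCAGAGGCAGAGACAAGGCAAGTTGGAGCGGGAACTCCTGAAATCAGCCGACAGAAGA

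Counts at this locus were almost all assigned to the minus strand gene, under the strand setting of the files. Gm16008 had 16097, 15816 and 11469 counts in replicates 1, 3 and 4, against 96, 65 and 70 for Tnfrsf18. Per kb of exon, Gm16008 stood at 12158, 11946 and 8662 counts and Tnfrsf18 at 63.0, 42.7 and 45.9 counts. The groups of values are far apart, with every value of the noncoding gene above every value of the receptor gene. The density of Gm16008 was thus 193-fold, 280-fold and 189-fold that of Tnfrsf18. Pooled over the 3 libraries the ratio per kb was 216 (exact 95% interval 190 to 247, counting error only). The mean log2 ratio was 7.75 ± 0.32 (SD, n = 3), higher in 3 of 3 libraries, with an exact two-sided sign-flip permutation p of 0.25, the smallest that 3 libraries allow.

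An unequal pair is the rule in these libraries. Of 2013 pairs of genes with overlapping exons on opposite strands and 300 or more counts, 98.2% had the same gene higher per kb in each of replicates 1, 3 and 4, as this pair had. The median sparser gene had 1.83% of the density of its partner, whereas Tnfrsf18 had 0.463% of that of Gm16008 (0.405 to 0.526%). A more unequal ratio was found in 550 of these pairs, or 27.3%. Tnfrsf18 had 0.518%, 0.357% and 0.530% of the density of Gm16008 in replicates 1, 3 and 4, lowest in replicate 3. In 164 pairs an inner gene lay nested, by 90% or more of its exonic length, in the exons of an outer, protein-coding gene of the opposite strand. There the median density of the outer gene was 0.283%, 0.135% and 0.267% of that of the inner gene in the same libraries, also lowest in replicate 3.

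**Figure D1:**
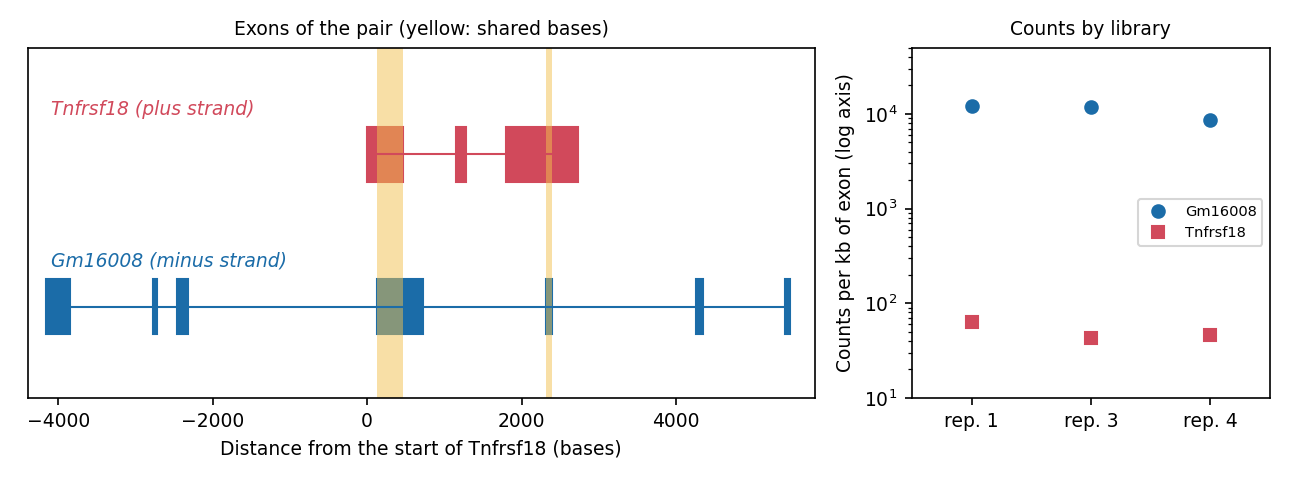
Left, exons of Tnfrsf18 and Gm16008 by distance in bases from the start of Tnfrsf18, with the 414 shared bases in yellow. Right, counts per kb of exon (log axis) in replicates 1, 3 and 4; Gm16008 lies between 8662 and 12158 and Tnfrsf18 between 42.7 and 63.0.

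By share of all counts, Gm16008 took 0.674% (0.664 to 0.684%) of replicate 1, 0.820% (0.807 to 0.832%) of replicate 3 and 0.669% (0.657 to 0.682%) of replicate 4, with Wilson intervals at 95%. Its mean level of 7768 ± 823.5 TPM (SD, n = 3) ranked 15 among all genes, a rank that holds for the counts as assigned and rests on the untested strand setting. The value is highest in replicate 3, and replicates 1 and 4 lie close together. Its exons also share 305 bases with Gm37090, a gene model on the same strand with 128, 132 and 106 counts. The file headers name no option for counting fragments in more than 1 gene, and how many were dropped at these bases is not known here. The files give no counts per exon, so the part of the Gm16008 counts that falls on the bases shared with Tnfrsf18 was not measured.

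Of the 9 members 8 lay above 1 TPM in limma's test across all genes, against 43.1% of the 14282 genes tested, and 0 lay below, against 8.31%. The receptors then fell into 2 ranges, with Tnfrsf18, Tnfrsf4, Btla and Ctla4 at mean levels of 26.4 to 35.9 TPM and Tnfrsf9, Pdcd1, Cd28 and Icos at 3.03 to 11.8 TPM. Icos, at 3.03 ± 2.51 TPM (SD, n = 3), was the member that did not pass, with a limma adjusted p of 0.0862. With replicate 2 included 4 members lay above, against 14% of the genes tested. Without replicate 3 Icos passed as well (limma adjusted p = 0.00759).

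Among the tumour necrosis factor receptor genes, Tnfrsf18 stood at 37.7, 31.1 and 38.7 TPM in replicates 1, 3 and 4, a spread of 11.5% of its mean (SD, n = 3). Tnfrsf4 lies upstream on the same strand of chromosome 4 (156013843 to 156016612, 1365 exonic bases), and 9551 bases separate the genes. It had 99, 18 and 66 counts, or 43.4, 9.62 and 40.8 TPM, so replicate 3 lay 4.51-fold below replicate 1. Tnfrsf4 had 72.5, 13.2 and 48.4 counts per kb, somewhat above Tnfrsf18 in replicates 1 and 4, while in replicate 3 Tnfrsf18 was 3.23-fold Tnfrsf4. Tnfrsf9, also on chromosome 4 (150914562 to 150946102, plus strand), had 59, 14 and 60 counts, or 13.0, 3.75 and 18.6 TPM. It too was lowest in replicate 3. Tnfrsf4 exceeded Tnfrsf9 per kb in each library, by 2.74-fold in the pooled counts (exact 95% interval 2.18 to 3.46, counting error only).

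Cd28, Ctla4 and Icos sit together on the plus strand of chromosome 1, with Cd28 at 60716800 to 60773359, Ctla4 at 60887000 to 60915832 and Icos at 60977927 to 61000320. Ctla4 had 109, 36 and 110 counts, or 28.0, 11.3 and 39.8 TPM. Cd28 had 36, 20 and 41 counts over 6122 exonic bases, or 3.52, 2.38 and 5.65 TPM. Icos had 11, 6 and 24 counts, or 1.92, 1.28 and 5.90 TPM. All of these genes were lowest in replicate 3 and highest in replicate 4. Ctla4 was 6.91-fold Cd28 per kb in the pooled counts (5.45 to 8.82) and 9.16-fold Icos (6.56 to 13.1), higher in 3 of 3 libraries for both. Cd28 was 1.33-fold Icos (0.911 to 1.96), an interval that includes equality, and went both ways among the libraries. These ratios belong to 7 that were computed between receptors after their values had been seen. The exact sign-flip p was 0.25 at the lowest and 0.438 after Benjamini-Hochberg adjustment over the 7, so none passed.

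Of the receptors with inhibitory tails, Btla lies on chromosome 16 (45224315 to 45252895, plus strand) and had 146, 137 and 110 counts. Its levels of 26.8, 30.7 and 28.5 TPM spread by 6.76% of the mean, the least among the members in these 3 libraries. Pdcd1, on the minus strand of chromosome 1 (94038305 to 94052553), had 15, 4 and 15 counts, or 4.65, 1.51 and 6.56 TPM. Pdcd1 was above 1 TPM with a limma adjusted p of 0.0211, but not without replicate 1 (0.0508) or without replicate 4 (0.0689). Btla was 6.85-fold Pdcd1 per kb in the pooled counts, with a lower exact bound of 4.82. That ratio was 5.77 and 4.35 in replicates 1 and 4 and 20.3 in replicate 3, where Pdcd1 had 4 counts.

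In order of mean TPM the members ran Gm16008, Tnfrsf18, Tnfrsf4, Btla, Ctla4, Tnfrsf9, Pdcd1, Cd28 and Icos. Only the step from Gm16008 to Tnfrsf18 separated neighbours whose ranges over the 3 libraries did not overlap. Ctla4 over Tnfrsf9 and Tnfrsf9 over Pdcd1 kept their order in 3 of 3 libraries, though their ranges overlapped. The other 5 of the 8 neighbouring pairs changed order between libraries and did not differ beyond their spread. The exact sign-flip p was 0.25 or more for every pair and 0.667 or more after Benjamini-Hochberg adjustment over the 8. Without replicate 3 the order began Gm16008, Tnfrsf4, Tnfrsf18, Ctla4 and Btla, and 6 of 8 neighbouring pairs kept their order in both libraries.

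**Figure D2:**
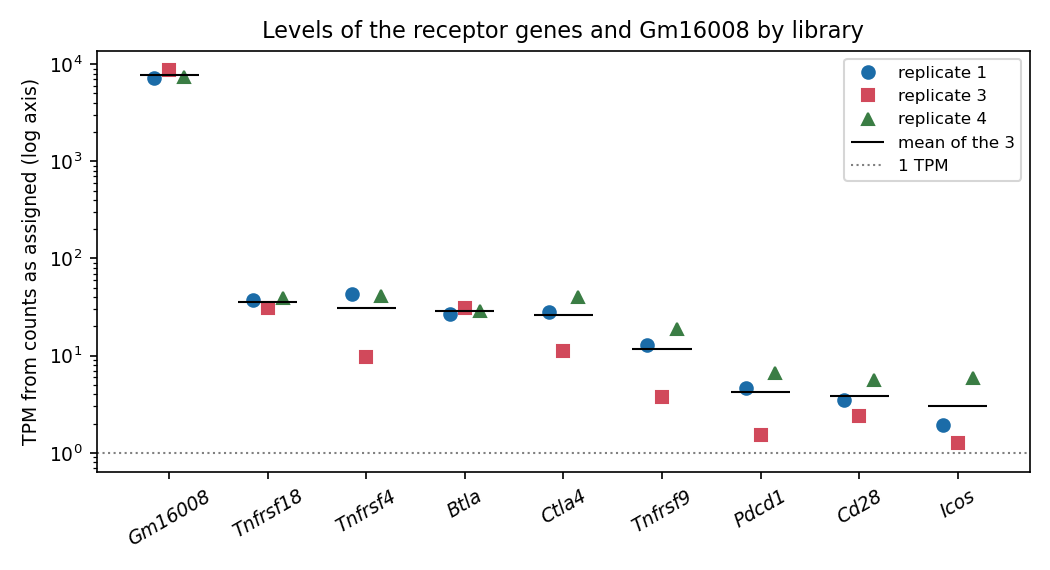
TPM from counts as assigned by the strand setting of the files (log axis) of the 9 members in replicates 1, 3 and 4, with the mean as a line and 1 TPM dotted. Gm16008 stands at 7278 to 8718 TPM, and the receptors at 1.28 to 43.4 TPM, with replicate 3 the lowest point for all of them but Btla. Scaled by TMM over genes without opposite-strand exons, replicate 3 was lowest for 4 of 8, for which no share over all genes was computed.

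Replicate 3 was then compared with the other libraries. In TPM, 7 of the 8 receptors were lower in replicate 3 than in both replicates 1 and 4, or 4 of 8 when libraries were scaled by TMM over genes without opposite-strand exons. Without that scaling, this held for 56.9% of all genes with a mean count of 10 or more. It held for 76% of those without opposite-strand exons and 41.8% of those with them. No such shares were computed under the other scaling, so the 4 of 8 cannot be read against them. Tnfrsf18, among the 7, belongs to the class with such exons, and all other receptors to the class without them. The count of 7 receptors is thus near the background of the class that most of them belong to. Genes without opposite-strand exons had a median TPM in replicate 3 of 0.503 times the mean of replicates 1 and 4, and genes with such exons 0.970 times. The same ratio was 0.229 for Tnfrsf4, 0.238 for Tnfrsf9, 0.270 for Pdcd1, 0.326 for Icos, 0.333 for Ctla4 and 0.520 for Cd28. It was 0.814 for Tnfrsf18, 1.11 for Btla and 1.20 for Gm16008, closer to the genes with opposite-strand exons, although Btla has none in the files.

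In edgeR's quasi-likelihood test of replicate 3 against the other 2, Tnfrsf4, Tnfrsf9 and Ctla4 were lower and Gm16008 was higher, 4 of 9 members against 15.2% of 6922 genes. Lower calls were made for 12.4% of all genes. They covered 3 of 7 receptors without opposite-strand exons, against 22% of the 3060 genes of that class. The log2 differences were −1.96 for Tnfrsf4 (SE 0.409, adjusted p = 1.20e-04), −1.88 for Tnfrsf9 (SE 0.464, adjusted p = 0.00167) and −1.41 for Ctla4 (SE 0.344, adjusted p = 0.00149). That of Gm16008 was 0.42 (SE 0.080, adjusted p = 1.37e-05). Pdcd1, Icos and Cd28 had log2 differences of −1.67, −1.36 and −0.75 and did not pass (edgeR adjusted p = 0.131, 0.171 and 0.281). The differences of Btla (0.32) and Tnfrsf18 (−0.13) did not pass either. The spread of the single library is taken to equal that of the other 2, and no condition is compared. As the alternative tool, DESeq2 gave no adjusted p for Cd28, Icos and Pdcd1, so it could not call them. DESeq2 called 0 of 9 members and 56 of 6922 genes, with 4 members at an unadjusted p under 0.05.

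Scaling bears on these calls. Under TMM over all genes the median log2 difference of all genes in replicate 3 was −0.11, and under TMM over genes without opposite-strand exons it was 0.72. With the latter, the median was 0.0093 for genes without such exons and 0.96 for genes with them. Higher values were thus common in the class with such exons, and Gm16008 rose from 0.42 to 1.26. Under that scaling Tnfrsf4 was still lower (−1.12, edgeR adjusted p = 0.0272), Tnfrsf9 and Ctla4 did not pass (−1.05 and −0.58, adjusted p = 0.0796 and 0.201), and Btla was higher (1.15, adjusted p = 5.81e-04). Over all 6922 genes, edgeR then called 2809 higher and 118 lower, so higher calls were common. Of the 3060 genes without such exons, 462 were called in either direction. Tnfrsf18 and Cd28 changed sign, to 0.71 and 0.083, and did not pass (edgeR adjusted p = 0.0663 and 0.911). The density of the sparser strand fell in replicate 3 as well, as given for the 164 nested pairs above, and its part in the differences of the receptors was not tested. In replicates 1 and 4, set against the other libraries in the same way, edgeR called 0 members lower or higher, with 0 at an unadjusted p under 0.05. DESeq2 also called 0, and 0.0289% and 0.0433% of all genes were called by edgeR.

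**Figure D3:**
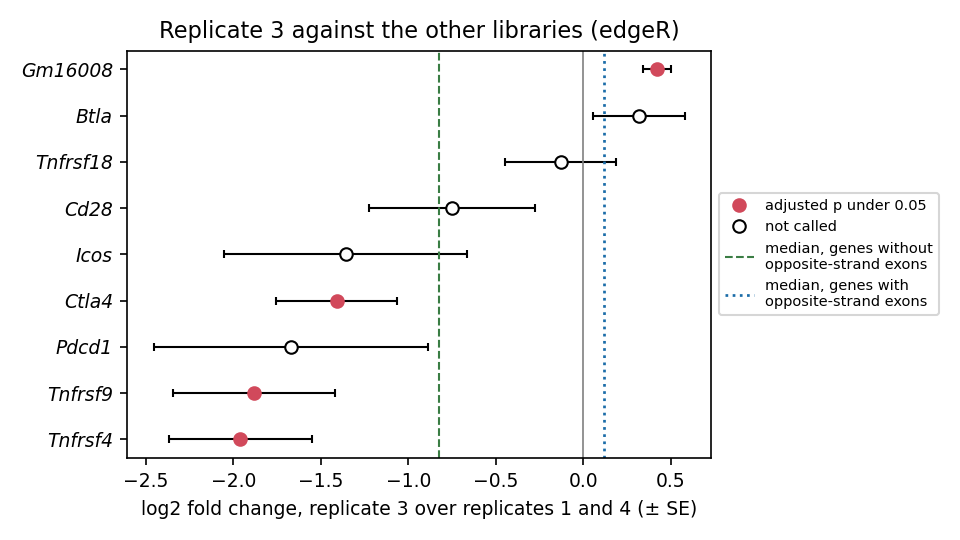
Fold change in log2 of each member in replicate 3 against replicates 1 and 4 with its standard error, from edgeR. Filled points passed the adjusted threshold of 0.05, namely Tnfrsf4, Tnfrsf9 and Ctla4 on the left and Gm16008 on the right, and the lines give the medians of genes without (−0.82) and with (0.12) opposite-strand exons. Tnfrsf18 and Cd28 turn to 0.71 and 0.083 when scaled by TMM over genes without opposite-strand exons.

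**Figure D4:**
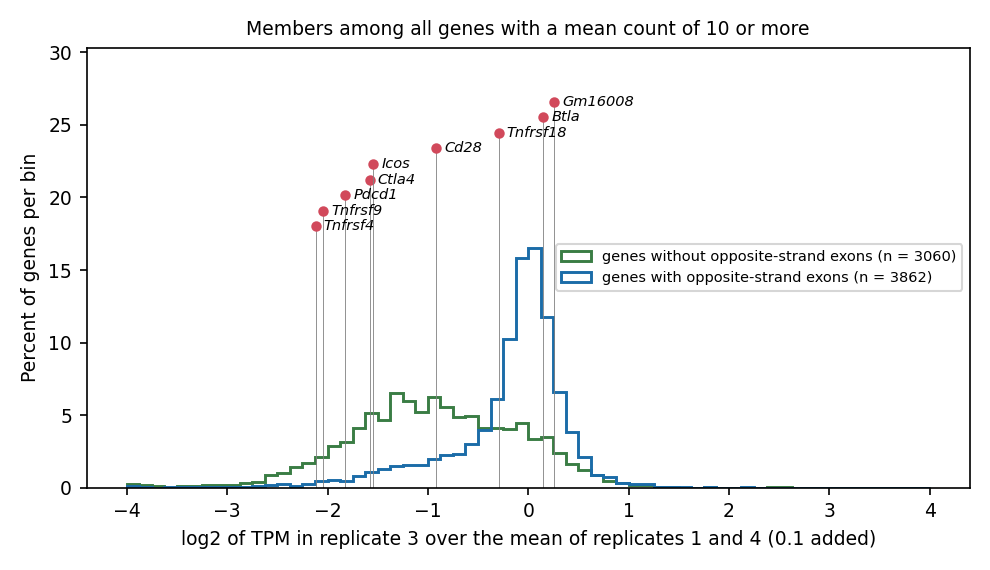
Distribution over genes of log2 TPM in replicate 3 over the mean of replicates 1 and 4, for 3060 genes without and 3862 genes with opposite-strand exons, in percent of genes per bin. The members are marked above. As plain TPM ratios, the quartiles were 0.336 and 0.795 in the first class and 0.781 and 1.10 in the second. Tnfrsf4, Tnfrsf9, Pdcd1, Icos and Ctla4 lay below the lower quartile of the first class, and Cd28 lay between its quartiles. Tnfrsf18 lay between the quartiles of the second class, and Btla and Gm16008 lay above them.

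The genes whose pattern over the 3 libraries was most like the mean of the 7 receptors without opposite-strand exons were Ccnd2, Rpl10 and Ccr4. Likeness was the Euclidean distance of centred log2 CPM (counts scaled to library size) among 2956 genes averaging at least 50 counts, and the distances were 0.104, 0.104 and 0.109. With 3 libraries such a distance is a weak description, and 24 genes lay within 0.25. Ccr4, for example, had 70, 30 and 78 counts in replicates 1, 3 and 4.

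Other genes of these pathways were read from lists chosen with earlier results in view. Of 9 ligand genes 3 lay above 1 TPM, 1 below, 3 were undecided and 2 had too few counts to test. The shares to read these lists against are 43.1% above and 8.31% below, over the genes tested. The ligands above were Tnfsf9, the ligand of Tnfrsf9, at 11.7, 10.1 and 9.60 TPM, and Pdcd1lg2 and Cd274, the ligands of Pdcd1, at 3.37 ± 0.736 and 2.63 ± 1.17 TPM (SD, n = 3). Tnfsf4, the ligand of Tnfrsf4, had 6, 0 and 3 counts in replicates 1, 3 and 4. Cd80 and Cd86, which bind Cd28 and Ctla4, had at most 2 and 1 counts in a library, and Icosl, the ligand of Icos, lay below 1 TPM. The median log2 level was −0.51 over the 7 ligands tested, 4.41 over the members and 0.77 over all genes tested.

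Other costimulatory receptors lay above 1 TPM in 7 of 11 cases (10 tested), against 43.1% of genes tested, with a median log2 level of 2.30. Cd6, Cd2 and Cd5, which tune signals of the antigen receptor, ranged over 25.5 to 31.8, 9.64 to 32.9 and 10.6 to 28.6 TPM. Cd40lg, the helper signal to B cells, stood at 13.1 ± 5.59 TPM (SD, n = 3). Cd2 and Cd5 were lower in replicate 3 (−1.59 and −1.21 log2, edgeR adjusted p = 0.00155 and 0.0142). Cd27, a tumour necrosis factor receptor of naive and memory cells, was higher there (1.13 log2, adjusted p = 0.0308), at 7.97, 18.2 and 10.9 TPM in replicates 1, 3 and 4. Other inhibitory receptors lay above in 2 of 10 cases (7 tested), against the same 43.1%, with 5 undecided and a median log2 level of 0.67. Tigit, which competes with Cd226 for its ligands, stood at 39.8, 43.2 and 46.4 TPM, above the mean of each of the 8 receptors. Vsir was at 4.60 ± 1.59 TPM, and Lag3, a receptor for MHC class II, was undecided with 17, 3 and 11 counts in replicates 1, 3 and 4.

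Adaptors and signalling proteins lay above 1 TPM in 8 of 18 cases and below in 0, a share near the 43.1% of all genes tested, with a median log2 level of 0.90 against 0.77. The highest of those named here was Ptpn6, a phosphatase recruited by inhibitory tails, at 12.9 ± 5.22 TPM (SD, n = 3), which has exons opposite Gm20531. In replicate 3 Pik3cd, a PI3 kinase subunit, was lower and Prkcq, the kinase that links Cd28 to NF-kB, was higher (edgeR, −2.07 and 0.96 log2, adjusted p = 0.0143 and 0.0222). Of genes induced through costimulation and NF-kB 6 of 11 lay above, against 43.1% of genes tested, with a median log2 level of 2.28. Nfkb2 was at 28.6 ± 3.47 TPM with exons opposite Psd, Nfkbia, the NF-kB inhibitor, at 17.5 ± 8.45 TPM and Il2, the T cell growth factor, at 16.4 ± 9.88 TPM. Birc3, Il2, Nfkb1, Nfkbia, Rel and Tnfaip3 were lower in replicate 3, 6 of the 9 list genes tested, with log2 differences of −2.48 to −1.11. The background of lower calls was 12.4% of all genes and 22% of those without opposite-strand exons. The median log2 difference of this list was −1.26, against −1.36 for the 9 members, −0.82 for genes without opposite-strand exons and −0.11 for all genes. The T cell and Th2 list had the same median as the members, −1.36, and edgeR called 5 of its 9 genes lower, Il13 (−2.08), Trac (−2.01), Cd3g (−1.56), Gata3 (−1.42) and Cd4 (−1.21). The list did not move as a whole. Differences were below 0 for 8 of the 9 genes, Il4 went the other way, and Il4, Il5, Cd3d and Cd3e did not pass. Its summed level was 201, 93.6 and 209 TPM in replicates 1, 3 and 4. The part of this shift in the differences of the receptors was not tested.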

How the data were processed

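RNA of Th2 cells was sequenced in 4 libraries of a single group. The authors deposited unnormalized counts of fragments in GENCODE vM13 exons (featureCounts 1.4.6-p4, both mates aligned, strand setting 1, per the file headers; the strand the kit reads is unknown here) on mm10, per the labels. Symbols came from the reference table by gene identifier without version, and 224 of 50600 identifiers had none. The members and lists were chosen with earlier results of these data known.

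TPM, from counts and exonic length, and CPM were calculated in Python 3.11.15 with pandas 2.3.3, numpy 2.4.6 and scipy 1.17.1. Exon overlaps of at least 1 base were found with bedtools 2.31.1. On log2(TPM + 0.1), limma 3.58.1 tested each level against that of 1 TPM, for genes with a mean count of 1 or more. Fold changes on that scale understate low genes. Libraries were compared with edgeR 4.0.16 (quasi-likelihood, TMM, mean count of 10 or more) in R 4.3.3, with DESeq2 1.42.0 as the alternative tool. All used Benjamini-Hochberg adjustment at 0.05, in limma and edgeR over all genes tested. DESeq2 adjusted after its own filter, which left some genes without an adjusted p. SE was taken from the log2 fold change and its F value. Ratios in the sign-flip tests had 0.5 added to each count. The tests were tested on simulated counts. Replicate 2, with 5016 counts, entered only alternatives, since its floor of 3 counts is 598 CPM, against 1.26 to 1.75 CPM in the others. Fragments carry no molecular identifiers, and intervals and floors therefore hold counting error alone.

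Genes were named by rule: all members, genes opposite them, the 4 list members with the highest mean TPM of each list, those called apart in a library, and the 3 nearest profiles. Other ligands, the lead genes of marker lists and Gm37090 were named after their values were seen. The values of 1 list gene are not reported here. Alternatives covered pseudocount, filters, scaling, tool, length, overlap and libraries.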

Additional observations from a re-analysis of the deposited data

Results flagged for a closer look

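Replicate 2 stood apart in levels of 3 members, by a test for a single distant value among 4 libraries, which chance alone passes in about 1 of 20 groups. Tnfrsf4 reached 449.7 TPM there from 2 counts, Tnfrsf9 reached 112.8 TPM from 1 count and Btla reached 94.2 TPM from 1 count. Each of these values is at or under the floor of 3 counts. Gm16008 had 11 counts in replicate 2, above that floor although the library entered none of the main comparisons. They made up 0.219% of its 5016 counts (Wilson 95% interval 0.122 to 0.392%), while Tnfrsf18 had 0, with an upper Wilson bound of 0.0765%.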

How the results depend on the processing

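With replicate 2 included, 4 members lay above 1 TPM, against 14% of the genes tested, and 1 of 8 neighbouring pairs kept its order in every library. Leaving out 1 of the 3 libraries gave 4 to 6 such pairs, 7 to 9 members above 1 TPM, and a log2 ratio of Gm16008 to Tnfrsf18 of 7.57 to 7.85. The share of all genes above 1 TPM is not at hand for these fits, so the 7 to 9 members have no background. The numbers of pairs were 6 without replicate 3 and 5 without replicate 4, but keeping an order over 2 libraries is easier than over 3, so they do not rank the libraries. Each omission changed the order among Tnfrsf18, Tnfrsf4, Btla and Ctla4, and none that of the lower 4 members. In replicate 3, DESeq2 gave no adjusted p for Cd28, Icos and Pdcd1. DESeq2 called 0 members apart in a library, against 4 by edgeR. Scaling by TMM over genes without opposite-strand exons, which for the TPM count was added with the data in view, left 4 receptors lower in replicate 3, and turned the log2 differences of Tnfrsf18 (0.71) and Cd28 (0.083). For that count of 4, no share over all genes was computed. The comparison of 1 library with the other 2 was not run without a replicate, since no residual degrees of freedom remain. No paired analysis was possible because there is a single group. In the 3 libraries used, Icos, Pdcd1 and Cd28 rested on 41, 34 and 97 counts, which limits what can be told of them.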
